A study of Mus musculus with 5 samples.

Results

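The genes described here encode axon guidance cues and their receptors: semaphorins with plexins and neuropilins, slits with robos, netrins with Dcc, neogenin and the Unc5 receptors, and the ephrins. Members were the rows of the count tables whose symbol belongs to these families by name alone. They came to 55 of 46959 gene symbols. The libraries come from D4M.3A, a melanoma cell line of C57BL/6 mouse origin, at passages 7 to 12. The compared cells carried caMNK, a constitutively active form of the kinase MNK1 (n = 3 libraries), or the retroviral vector pBABE as the control (n = 2 libraries). Total RNA was sequenced after library preparation with a stranded kit. Nothing in the labels says whether each line is 1 clone or a pool, so group and cell line are the same thing here. Line and kinase cannot be told apart in this design. The libraries are described as biological replicates with no word on how cultures were separated, so p-values measure the spread between libraries, which may be technical.

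Guidance cues are secreted or membrane-bound proteins that attract or repel the leading edge of a moving cell by acting on its cytoskeleton. Class 3 semaphorins are secreted and mostly bind a neuropilin, which passes the signal to a plexin, whereas the membrane-bound semaphorins bind plexins directly. Slits bind Robo receptors, netrins bind Dcc, neogenin and Unc5 receptors, and ephrins are held on the membrane and bind Eph receptors on a neighbouring cell. Neural crest cells, from which melanocytes arise, are steered by these cues during migration.

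The libraries held 27827199 to 48794336 counts in caMNK and 32963884 and 42730166 in pBABE. Members took 0.268% to 0.275% of the counts in caMNK and 0.290% and 0.305% in pBABE. The kinase gene Mknk1 measured 167, 155 and 168 CPM in caMNK and 15.2 and 16.7 CPM in pBABE (CPM, counts scaled to the library's TMM-adjusted total), so the libraries followed their labels. Of 11 pigment cell genes, Tyrp1, Dct and Slc45a2 had 0 counts in all libraries, and Tyr, Mlana and Sox10 were at 0.0619 CPM or less. The summed level of the 11 was 4.97 to 6.85 CPM in caMNK and 6.33 to 6.57 CPM in pBABE, most of it Mitf, so the defining markers of pigmented cells were all but absent. The 5 neural crest-like melanoma genes summed to 1279 to 1333 CPM in caMNK and 1355 to 1367 CPM in pBABE, mostly Axl. Of these genes 3 rose, Sox9, Tfap2b and Tfap2a, which may share reads with Gm26688, where 4.42% of all tested genes rose. Of 10 tested mitochondrial mRNAs 6 rose, beside the same 4.42% of all tested genes, and their list summed to 18772 to 21665 CPM in caMNK against 12290 to 13533 CPM in pBABE. Whether this shift has a part in the results below was not tested.

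Of the 55 members, 43 had enough counts to test. In the comparison of caMNK with pBABE, 3 rose (Sema3f, Sema6a and Unc5c) and 3 fell (Nrp2, Plxna1 and Plxnb2) at an adjusted p under 0.05, by edgeR's quasi-likelihood test with Benjamini-Hochberg adjustment over all 17026 genes tested. That is 14.0% of the tested members, where 7.94% of all tested genes were called, 4.42% as rises and 3.52% as falls. The groups did not overlap for 25 of the 43 members, or 58.1%, against 44.9% of all genes tested. In 11 of them caMNK lay above pBABE, the case for 22.3% of all genes, and in 14 below, the case for 22.6%. The median log2 fold change (caMNK over pBABE) was -0.054 over the tested members and -0.0021 over all genes. Among the ligands 2 of 28 tested genes rose and 0 fell, with 12 at an unadjusted p under 0.05, a level that 25.9% of all tested genes passed. Among the receptors 1 of 15 rose and 3 fell, with 8 at an unadjusted p under 0.05. Of the 6 calls, Unc5c alone reached 2-fold. All 6 were lost when either pBABE library was left out, where the lone pBABE library is assumed to vary like the caMNK libraries, and 5 of them, all but Unc5c, when caMNK replicate 1 was left out. Each of the 6 was called without caMNK replicate 2 and without caMNK replicate 3. Leaving out caMNK replicate 2 gave 2325 rises and 2617 falls among 16675 tested genes, against 753 and 599 with all libraries. Low adjusted p-values without that library, given below for some uncalled members, were thus common among all genes. Sema3a, Sema3c, Plxna4, Efna1, Efna4 and Efnb3 were also uncalled members that passed without it. Without caMNK replicate 1, no uncalled member passed.

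**Figure D1:**
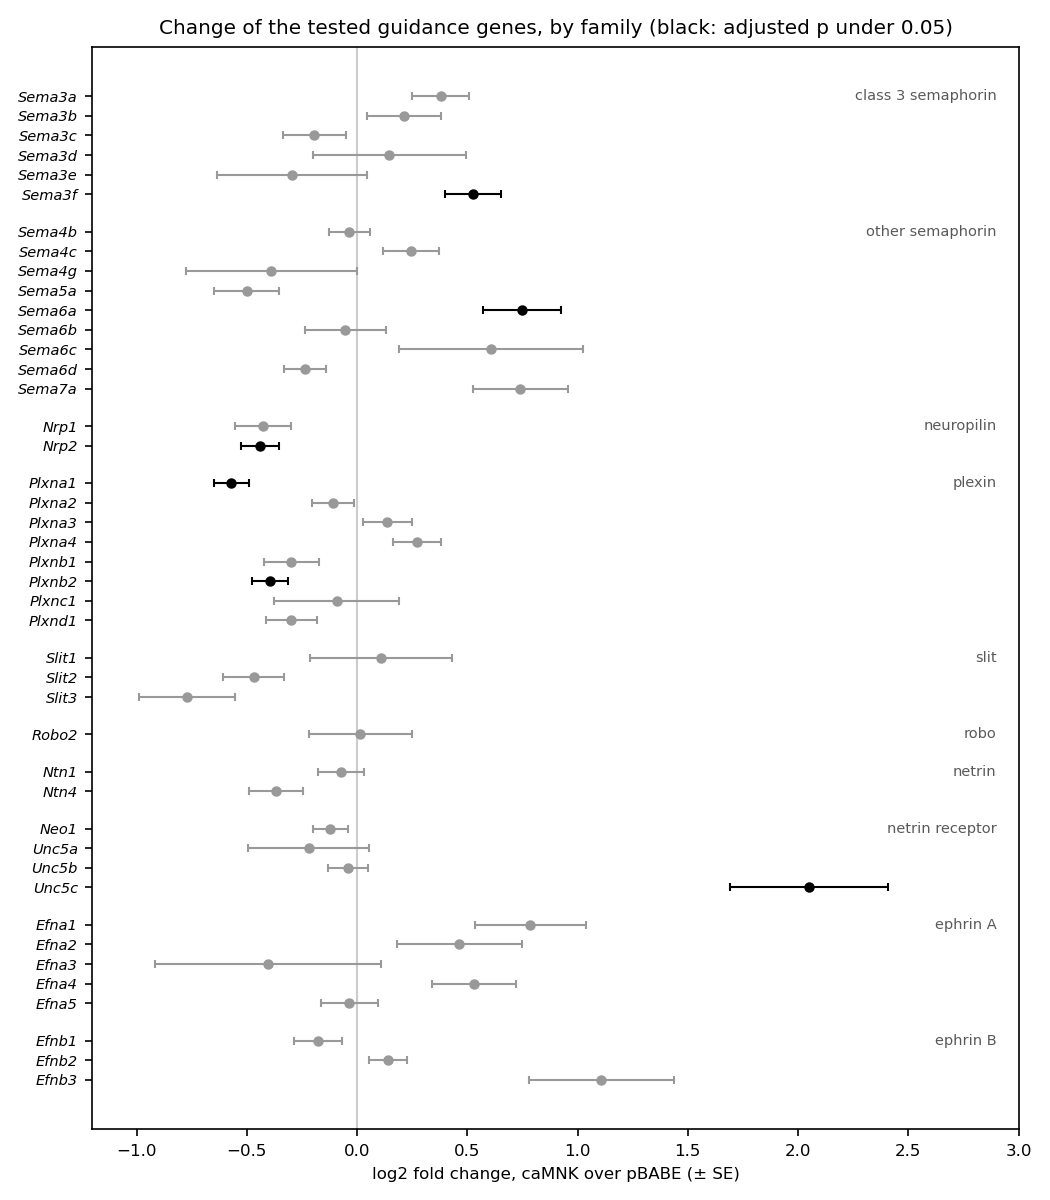
Log2 fold change of caMNK over pBABE for the 43 tested guidance genes (x axis, points, with bars of 1 SE), grouped by family down the page. Black points mark the 6 genes at an adjusted p under 0.05, with Unc5c farthest to the right at 2.05 and Plxna1, the lowest of them, at -0.57.

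Of the 6 tested class 3 semaphorins, which are secreted, 1 rose and 0 fell, where 4.42% of all tested genes rose and 3.52% fell. Sema3f, a repellent that signals through neuropilin 2, measured 23.4, 19.5 and 24.2 CPM in caMNK and 16.2 and 14.8 CPM in pBABE. All caMNK libraries lay above both pBABE libraries, with a 1.44-fold rise (log2 fold change 0.53, SE 0.125, adjusted p = 0.0403 by edgeR). The adjusted p was 0.251 and 0.306 without pBABE replicates 1 and 2, and 0.151 without caMNK replicate 1. Sema3f is at chr9:107681500-107710475, minus strand (GENCODE M21, build mm10, as for all gene positions here).

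Sema3a, the founding repellent of the class and a ligand of neuropilin 1, was the class 3 member with the most reads. It measured 319, 382 and 286 CPM in caMNK and 238 and 268 CPM in pBABE. The groups did not overlap, but the caMNK libraries spread widely and the gene was not called (log2 fold change 0.38, SE 0.128, adjusted p = 0.105 by edgeR). By DESeq2 its adjusted p was 0.0480. Sema3b, which is on the strand of Sema3f at chr9:107597674-107609229, measured 46.9, 31.7 and 48.0 CPM in caMNK and 35.9 and 36.8 CPM in pBABE. The low value of caMNK replicate 2 brought it below both pBABE libraries (adjusted p = 0.476 by edgeR). Without that replicate its log2 fold change was 0.38, with an adjusted p of 0.00127. Sema3c, an attractant in heart and crest development, measured 19.9, 25.8 and 19.5 CPM in caMNK and 23.2 and 26.8 CPM in pBABE, with overlapping groups. Sema3d and Sema3e were low, between 0.351 and 0.713 CPM in all libraries, and were not called, and Sema3d may share reads with Gm8925. Sema3g stayed under the filter with at most 5 counts in a library.

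Among the membrane-bound semaphorins, Sema6a rose and Sema5a and Sema7a stood close to the threshold. Sema6a, which binds plexins A2 and A4, measured 8.40, 9.24 and 8.19 CPM in caMNK and 4.20 and 6.14 CPM in pBABE. The caMNK libraries lay close together, above a pBABE pair that differed more, and the rise was 1.68-fold (log2 fold change 0.75, SE 0.176, adjusted p = 0.0389 by edgeR). The adjusted p was 0.353 and 0.0763 without pBABE replicates 1 and 2 and 0.117 without caMNK replicate 1. Sema6a is at chr18:47235598-47368870, minus strand.

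Sema7a, a membrane-anchored semaphorin that binds plexin C1 and integrins, measured 53.2, 45.8 and 66.3 CPM in caMNK and 25.2 and 40.8 CPM in pBABE. Both groups were broad, and the difference was not called (log2 fold change 0.74, SE 0.215, adjusted p = 0.0713 by edgeR; 0.00238 by DESeq2). Its receptor genes are Plxnc1, at 0.593 to 0.987 CPM in caMNK and 0.868 to 0.888 CPM in pBABE, and the integrin gene Itgb1, at 1317 to 1457 CPM in caMNK and 1568 and 1614 CPM in pBABE. Neither was called. Sema5a, a semaphorin with thrombospondin repeats, measured 169, 213 and 144 CPM in caMNK and 248 and 248 CPM in pBABE. All caMNK libraries were lower, by unequal amounts (log2 fold change -0.50, SE 0.146, adjusted p = 0.0719 by edgeR). By DESeq2 its adjusted p was 0.0123. Without caMNK replicate 2, its adjusted p was 1.5e-05 by edgeR and its log2 fold change -0.67. Without caMNK replicate 1, its adjusted p was 0.224 by edgeR.

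Of the class 4 genes, Sema4b and Sema4c were expressed without a call, and Sema4c encodes a ligand of plexin B2. Sema4b measured 90.5, 86.8 and 96.0 CPM in caMNK and 88.0 and 98.8 CPM in pBABE. Its 95% interval of the log2 fold change ran from -0.25 to 0.18. Sema4c measured 45.2, 35.9 and 46.2 CPM in caMNK and 33.9 and 37.6 CPM in pBABE. Its groups overlapped through caMNK replicate 2, and without that library its log2 fold change was 0.35 and its adjusted p 0.00352. Sema6d, a ligand of plexin A1, measured 74.5, 73.5 and 74.1 CPM in caMNK and 79.8 and 94.5 CPM in pBABE, with caMNK below both (log2 fold change -0.23, adjusted p = 0.164 by edgeR; 0.0454 without caMNK replicate 2). Sema6b, Sema6c and Sema4g were low, at 0.267 to 2.95 CPM, and not called. Sema4a, Sema4d, Sema4f and Sema5b were under the filter, with at most 11 counts in a library, and Sema5b may share reads with Gm5963.

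**Figure D2:**
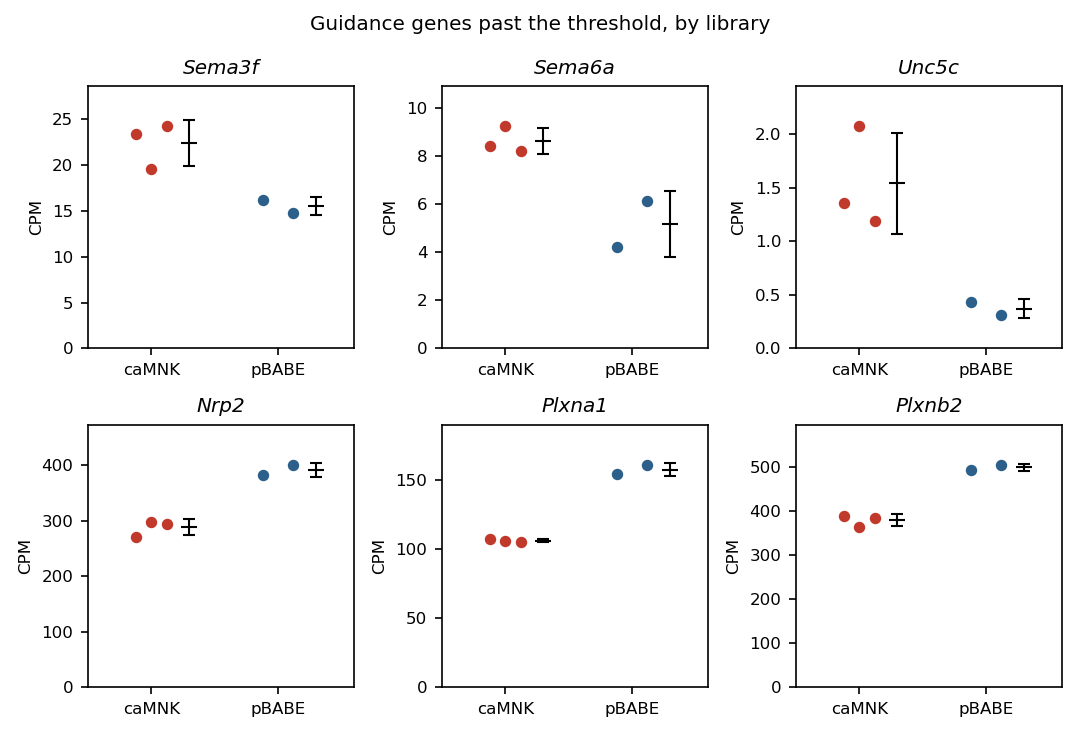
CPM in each library (y axis, from 0) for the 6 guidance genes past the threshold, with the 3 caMNK libraries in red and the 2 pBABE libraries in blue. The black marks give the mean and SD of each group, and no caMNK library overlaps a pBABE library in any of the 6 panels.

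The receptors of the semaphorins included the 3 genes that fell. Nrp2, which encodes the neuropilin that binds Sema3f and also serves as a VEGF-C co-receptor, measured 272, 299 and 295 CPM in caMNK and 382 and 400 CPM in pBABE. All caMNK libraries were lower, 1.36-fold on average (log2 fold change -0.44, SE 0.0851, adjusted p = 0.0197 by edgeR). Nrp1, the neuropilin of Sema3a and VEGF-A, measured 78.2, 99.7 and 74.2 CPM in caMNK and 115 and 111 CPM in pBABE. The log2 fold change was of like size, -0.43, but caMNK replicate 2 lay between the other caMNK libraries and pBABE. Nrp1 was not called (SE 0.128, adjusted p = 0.0775 by edgeR). Its adjusted p was 0.0281 by DESeq2, and 2.22e-05 by edgeR without caMNK replicate 2. The adjusted p of Nrp2 was 0.186 and 0.217 without pBABE replicates 1 and 2, and 0.117 without caMNK replicate 1. Nrp2 is at chr1:62703285-62818695, plus strand. Both neuropilins are abundant in endothelial cells, so endothelial markers were read beside them. Tie1 was at 0 in all libraries, Cldn5 had at most 0.0206 CPM and Emcn at most 0.0697 CPM. Of 8 endothelial genes, 3 were tested and 1 fell, where 3.52% of all tested genes fell. It was Cdh5 of endothelial junctions, with 2.27 to 2.81 CPM in caMNK and 4.89 and 8.80 CPM in pBABE. The other tested ones, Tek and Pecam1, had log2 fold changes of 0.82 and 1.07 and were not called, and the median of the 3 was 0.82. The 8 summed to 3.73 to 4.04 CPM in caMNK and 5.52 to 9.51 CPM in pBABE. In bulk libraries of a cell line, fewer cells with a transcript and less of it per cell cannot be told apart.

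Among the plexins, the signalling receptors of the semaphorins, 2 of 8 tested genes fell and 0 rose. Of all tested genes, 3.52% fell and 4.42% rose. Plxna1, a co-receptor with the neuropilins, measured 107, 105 and 105 CPM in caMNK and 154 and 160 CPM in pBABE. The caMNK libraries were nearly equal and all lower, 1.49-fold (log2 fold change -0.57, SE 0.0793, adjusted p = 0.00807 by edgeR), which was the lowest adjusted p of the members. It was 0.124 and 0.109 without pBABE replicates 1 and 2, and 0.0541 without caMNK replicate 1. Plxna1 is at chr6:89316314-89362620, minus strand. It overlaps Gm26811, a gene on the opposite strand, by 11308 bases. How reads in the overlap were assigned is not known, as the counting options are not given. Gm26811 measured 69.1 to 75.2 CPM in caMNK and 89.7 to 92.6 CPM in pBABE, and fell too (log2 fold change -0.33, adjusted p = 0.0473 by edgeR). Plxnb2, a receptor of class 4 semaphorins and of angiogenin, measured 390, 364 and 385 CPM in caMNK and 494 and 505 CPM in pBABE. All caMNK libraries were lower, 1.32-fold (log2 fold change -0.40, SE 0.081, adjusted p = 0.0243 by edgeR). Its adjusted p was 0.228 and 0.234 without pBABE replicates 1 and 2, and 0.107 without caMNK replicate 1. Plxnb2 is at chr15:89155549-89180788, minus strand, a span of 25240 bases, whereas the deposited length is 15572 bases.

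Plxnb1 and Plxnd1 had lower levels in all caMNK libraries without a call. Plxnb1, the Sema4d receptor, measured 23.3, 19.1 and 24.8 CPM in caMNK and 26.6 and 28.4 CPM in pBABE (log2 fold change -0.30, adjusted p = 0.179 by edgeR). Plxnd1, which binds Sema3e in blood vessels, measured 27.0, 23.8 and 30.0 CPM in caMNK and 32.0 and 34.2 CPM in pBABE (log2 fold change -0.30, adjusted p = 0.147 by edgeR). The remaining A plexins had smaller differences and were not called. Plxna2 had a log2 fold change of -0.11, Plxna3 of 0.14 and Plxna4 of 0.27, with 95% intervals of -0.33 to 0.11, -0.11 to 0.39 and 0.021 to 0.52. The interval of Plxna1 ran from -0.75 to -0.39 and overlapped none of the 3. Differences between genes were not tested. Plxna4 measured 54.1, 53.0 and 53.3 CPM in caMNK and 39.3 and 49.4 CPM in pBABE, with caMNK above both (adjusted p = 0.165 by edgeR). Plxnb3, which had 2, 5 and 2 counts in caMNK and 0 and 0 counts in pBABE, was not tested.

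Sequence upstream of 2 of the falling receptor genes, Nrp2 and Plxnb2, is shown because both fell in all caMNK libraries and both have an entry in the RefSeq promoter table of build GRCm38.p6. Each sequence reads 5′ to 3′ on the gene's own strand, ends before the first base of the GENCODE gene, and has its motif matches in capitals.
Nrp2, chr1:62703067-62703284, plus strand: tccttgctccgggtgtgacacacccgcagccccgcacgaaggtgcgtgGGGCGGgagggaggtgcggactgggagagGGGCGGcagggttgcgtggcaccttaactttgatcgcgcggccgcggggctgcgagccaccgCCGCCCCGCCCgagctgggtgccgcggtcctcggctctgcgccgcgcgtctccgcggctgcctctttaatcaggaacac
Plxnb2, chr15:89180789-89181038, minus strand: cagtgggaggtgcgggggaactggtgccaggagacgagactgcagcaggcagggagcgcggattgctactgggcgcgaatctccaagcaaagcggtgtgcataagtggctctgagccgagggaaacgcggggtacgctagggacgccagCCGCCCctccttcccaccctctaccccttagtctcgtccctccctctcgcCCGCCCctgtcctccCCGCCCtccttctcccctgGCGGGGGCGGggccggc
The motifs searched on both strands were the GC box GGGCGG, the EGR sites GCGTGGGCG and GCGGGGGCG, the AP-1 site TGANTCA, the cAMP response element TGACGTCA, the E-box CACGTG and the TATA box TATAAA. Nrp2 held 4 GC boxes in 218 bases, of which 2 overlap each other, and Plxnb2 held 4 GC boxes in 250 bases. A GC box is in 28.2% of all 32851 table windows cut to 218 bases and in 32.7% of those of 250 bases. Plxnb2 also held 1 GCGGGGGCG, overlapping its last GC box, a motif in 2.57% of the windows. The letters of the other motifs were in neither sequence. GC content was 72.5% for Nrp2 and 69.2% for Plxnb2, against a median of 52.4% over all windows.

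None of the 3 slits was called, and Slit2 and Slit3 were lower in caMNK by amounts that differed between libraries. Slit2, a secreted repellent cleaved into fragments that bind Robo receptors, measured 107, 140 and 101 CPM in caMNK and 161 and 161 CPM in pBABE. All caMNK libraries were below an almost identical pBABE pair (log2 fold change -0.47, SE 0.137, adjusted p = 0.0726 by edgeR). Slit3 measured 12.4, 19.4 and 10.9 CPM in caMNK and 26.0 and 22.8 CPM in pBABE, and here too every caMNK library was lower (log2 fold change -0.77, SE 0.217, adjusted p = 0.0657 by edgeR). Both passed by DESeq2, at adjusted p-values of 0.0165 and 0.00307, and without caMNK replicate 2, at 7.8e-06 and 2.8e-06. Slit1 measured 0.486 to 0.837 CPM in caMNK and 0.552 to 0.682 CPM in pBABE. Of the Robo receptors, only Robo2 had enough counts to test. Robo2 measured 2.68, 3.33 and 2.08 CPM in caMNK and 2.40 and 3.01 CPM in pBABE, with overlapping groups and a 95% interval of the log2 fold change from -0.51 to 0.54. Robo1 had 1 count over all 5 libraries, Robo3 0 to 2 counts in caMNK and 8 and 5 counts in pBABE, and Robo4, an endothelial member, 0 counts. A count of 0 allows a level of up to 0.105 CPM in the shallowest caMNK library, taking 3 counts as the limit, for counting error only.

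Among the netrin genes and their receptors, the rise was in Unc5c, a repulsive netrin receptor. Unc5c had 39, 101 and 44 counts in caMNK and 18 and 10 counts in pBABE, or 1.36, 2.08 and 1.19 CPM in caMNK and 0.432 and 0.310 CPM in pBABE. All caMNK libraries were above both pBABE libraries, 4.13-fold, at a low level in both groups (log2 fold change 2.05, SE 0.358, adjusted p = 0.0146 by edgeR). It was the largest change among the tested members, with an adjusted p of 0.135 and 0.122 without pBABE replicates 1 and 2. Unc5c is at chr3:141465216-141834924, plus strand, a span of 369709 bases. Its paralogue Unc5b, a netrin receptor of blood vessels, measured 306, 277 and 321 CPM in caMNK and 304 and 315 CPM in pBABE. The groups overlapped, and the 95% interval of its log2 fold change ran from -0.25 to 0.17. Neo1, neogenin, which binds netrins and repulsive guidance molecules, measured 202, 204 and 206 CPM in caMNK and 218 and 226 CPM in pBABE (log2 fold change -0.12, adjusted p = 0.379 by edgeR). Unc5a measured 0.558 to 0.720 CPM in caMNK and 0.696 to 0.806 CPM in pBABE and was not called. Dcc, the attractive netrin receptor, had 0, 1 and 1 counts in caMNK and 0 and 0 counts in pBABE, and Unc5d at most 4 counts in a library.

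The netrins themselves were not called. Ntn1 measured 22.5, 22.0 and 20.5 CPM in caMNK and 24.2 and 21.3 CPM in pBABE, with overlapping groups. Ntn4, a netrin of basement membranes, measured 21.3, 24.5 and 18.9 CPM in caMNK and 27.0 and 28.8 CPM in pBABE. All its caMNK libraries were lower (log2 fold change -0.37, SE 0.123, adjusted p = 0.104 by edgeR; 0.00115 without caMNK replicate 2). Ntn5, which may share reads with Sec1, had at most 4 counts in a library.

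None of the 8 ephrins was called, with 3 at an unadjusted p under 0.05 by edgeR and Efnb3 past the threshold by DESeq2. For 5 of them the caMNK libraries lay above both pBABE libraries, the case for 22.3% of all genes, for Efnb1 below, and for Efna3 and Efna5 the groups overlapped. Efnb3, a transmembrane ephrin of the midline of the nervous system, measured 3.52, 1.75 and 2.22 CPM in caMNK and 0.984 and 1.30 CPM in pBABE. caMNK replicate 1 stood above the other caMNK libraries (log2 fold change 1.11, SE 0.329, adjusted p = 0.0755 by edgeR; 0.0204 by DESeq2). Efnb2, the most abundant ephrin by CPM per kilobase of deposited length and a ligand of EphB4 on arteries, measured 89.6, 90.6 and 82.9 CPM in caMNK and 78.5 and 80.6 CPM in pBABE (log2 fold change 0.14, adjusted p = 0.342 by edgeR). Efnb1 measured 15.8, 14.3 and 16.7 CPM in caMNK and 17.7 and 17.5 CPM in pBABE.

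The ephrin A genes Efna1, Efna3 and Efna4 lie together on chromosome 3, between 89271733 and 89338028, all on the minus strand. Efna1, a ligand of EphA2, measured 2.13, 1.46 and 1.51 CPM in caMNK and 1.01 and 0.930 CPM in pBABE (log2 fold change 0.79, SE 0.253, adjusted p = 0.0916 by edgeR). Efna4 measured 6.41, 4.36 and 6.03 CPM in caMNK and 3.77 and 3.94 CPM in pBABE (log2 fold change 0.53, adjusted p = 0.126 by edgeR). Efna4 overlaps 4731419I09Rik on the opposite strand by 179 bases, so part of its counts may belong to that gene. Between these neighbours, Efna3 measured 0.627, 0.185 and 0.784 CPM in caMNK and 0.744 and 0.589 CPM in pBABE, with overlapping groups, and may share reads with Gm15998. Efna2 measured 0.697 to 0.864 CPM in caMNK and 0.496 to 0.624 CPM in pBABE. Efna5 measured 11.0, 13.2 and 10.5 CPM in caMNK and 11.8 and 11.9 CPM in pBABE.

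**Figure D3:**
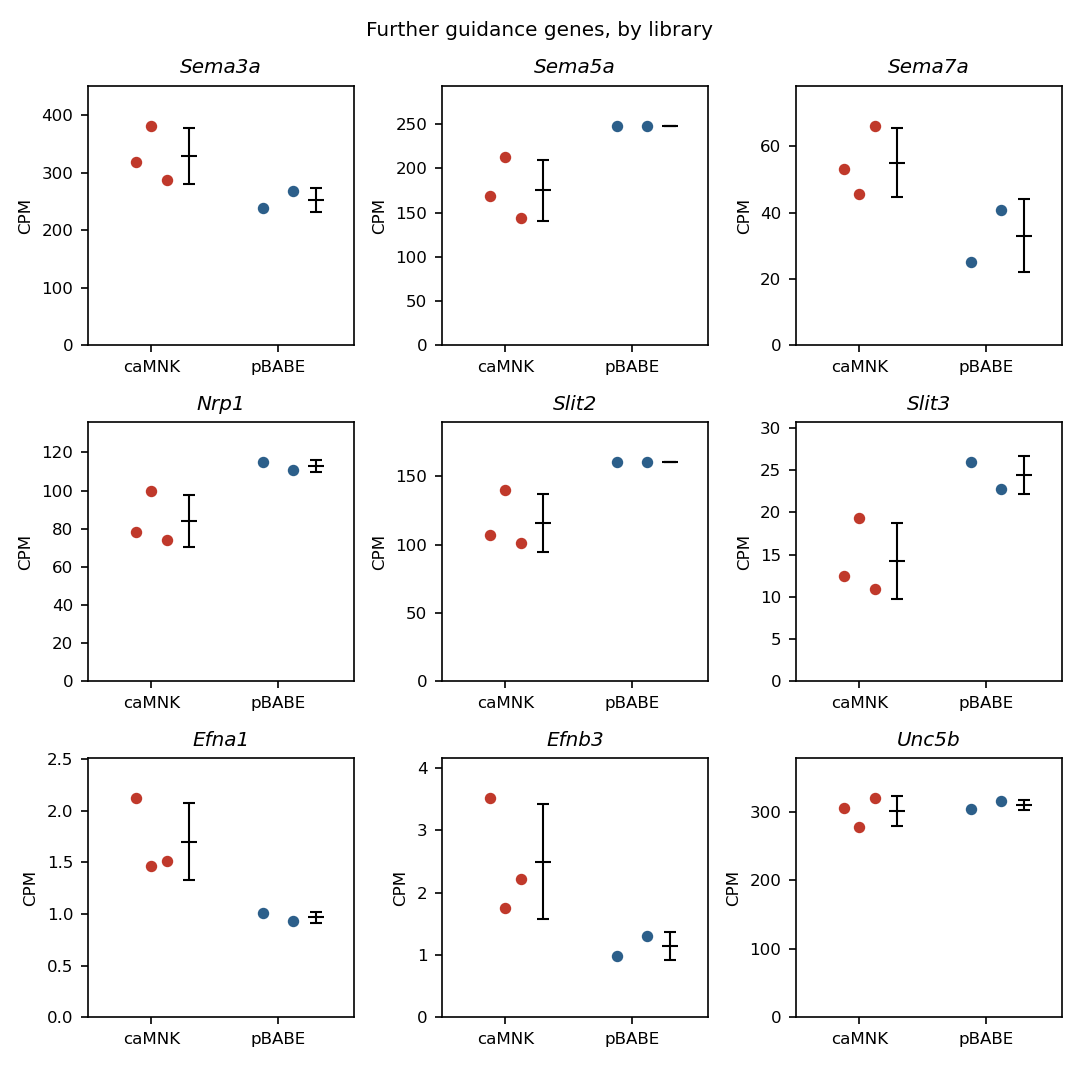
CPM in each library (y axis, from 0) for 9 guidance genes that were not called, with caMNK in red, pBABE in blue, and the mean and SD of each group in black. In Sema5a, Nrp1, Slit2 and Slit3 all caMNK libraries are below pBABE and caMNK replicate 2, drawn as the middle red point, is the highest of the 3.

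Levels across members were set side by side as mean CPM per kilobase of deposited length, which includes introns for most genes. Genes with long introns are thus low on this scale, and the order is not one by exon length. Sema3a, at a mean of 329 CPM in caMNK and 253 CPM in pBABE, came to 0.690 in caMNK and 0.530 in pBABE. Its annotated exons cover 13868 of 477152 bases, and those of Sema4c 4593 of 9711 bases. On this scale of level, Plxnb2 was first, at 24.4 in caMNK and 32.1 in pBABE. Next in the order of the caMNK levels came Sema4c at 4.37 in caMNK and 3.68 in pBABE, Unc5b at 4.36 in caMNK and 4.49 in pBABE, and Sema3b at 3.65 in caMNK and 3.15 in pBABE. The order differed in pBABE, where Unc5b was above Sema4c and Nrp2 and Plxna1 were above Sema3b. Nrp2 was at 2.499 in caMNK and 3.39 in pBABE, Sema7a at 2.42 in caMNK and 1.45 in pBABE, and Plxna1 at 2.28 in caMNK and 3.39 in pBABE. Unc5c was at 0.00417 in caMNK and 0.0010 in pBABE, so the largest fold was of a gene with very sparse reads. The Plxnb2 value rests on the deposited length, which is shorter than the annotated span.

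The caMNK libraries differed among themselves in a way that went with the length of the gene. Among members whose mean log2 CPM was at least 3, 14 were 100 kb or longer, and in these caMNK replicate 2 was above both other caMNK libraries 10 times and below both 2 times. Of the 13 shorter members it was above both in 1 and below both in 11. Its median log2 difference from the mean of caMNK replicates 1 and 3 was 0.29 for the longer and -0.18 for the shorter members. Slit3, Slit2, Sema5a, Sema3a, Nrp1 and Sema3c are long genes with a high value in this library, while Sema3b, Sema4c, Sema7a and Plxnb1 are short genes with a low value. Across the 27 members, the correlation of this difference with log10 length was 0.79 (Pearson) and 0.79 (Spearman). Over all 10495 genes of such abundance it was 0.30 and 0.34. The other caMNK libraries differed with length too: for replicate 3 minus replicate 1 the correlations were -0.59 and -0.61 over the 27 members and -0.30 and -0.34 over all genes. The points share the same 3 libraries, and genes are not independent replicates. The difference between the group means was less related to length, with correlations of -0.33 and -0.32 over the 27 members and -0.15 and -0.20 over all genes.

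**Figure D4:**
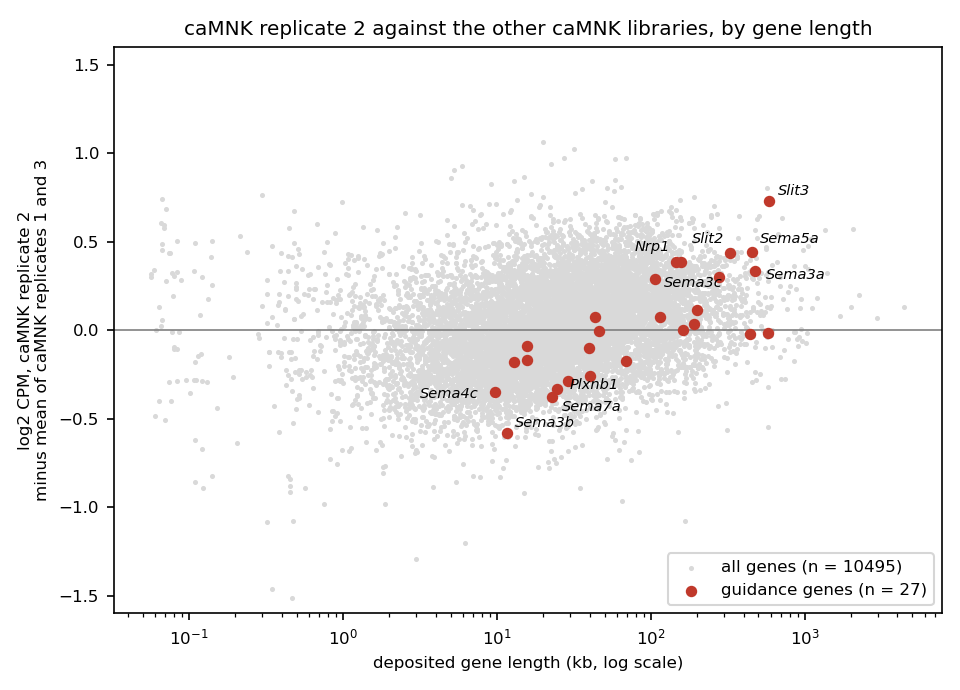
Log2 CPM of caMNK replicate 2 minus the mean of caMNK replicates 1 and 3 (y axis) against deposited gene length in kilobases (x axis, log scale), for genes whose mean log2 CPM was at least 3. Red points are the 27 guidance genes and grey points all 10495 genes, and the red points run from Sema3b and Sema4c at the lower left to Slit3 at the upper right.

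A fit with a correction for length in each library, added after these values were seen, called 4 members as rises and 6 as falls. The 6 called genes were among them. Of 17026 tested genes, that fit called 831 as rises and 668 as falls, against 753 and 599 without the correction. Sema3a rose there (log2 fold change 0.40, adjusted p = 0.0450 by edgeR with the correction), and Sema5a (-0.48, 0.0344), Slit2 (-0.43, 0.0384) and Slit3 (-0.78, 0.0348) fell. Nrp1 and Sema7a remained above the threshold, at 0.0607 and 0.0685. The part of length in the group differences was not tested beyond this fit.

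Partner genes of these pathways were read from 3 lists chosen by function, with earlier results of these data known. Of all tested genes, 4.42% rose and 3.52% fell, the background for each list. Of 14 Eph receptors, the receptors of the ephrins, 9 were tested, 0 rose and 1 fell. Ephb2 measured 4.67, 3.99 and 4.57 CPM in caMNK and 8.16 and 6.82 CPM in pBABE (log2 fold change -0.77, SE 0.148, adjusted p = 0.0193 by edgeR). Epha2 was read at 192 to 244 CPM in caMNK and 239 to 266 CPM in pBABE and Ephb4, the Efnb2 receptor, at 45.9 to 56.6 CPM in caMNK and 49.8 to 52.6 CPM in pBABE, neither called. The next by p were Ephb3 (log2 fold change 0.36, adjusted p = 0.0998 by edgeR) and Epha1 (0.44, 0.233), which may share reads with Zyx. The median log2 fold change of the 9 was 0.15, against -0.0021 over all genes.

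Of 24 further ligands and co-receptors, 15 were tested, 2 rose and 3 fell, with a median log2 fold change of -0.084. Rgmb, a ligand of neogenin, measured 68.1, 71.8 and 67.0 CPM in caMNK and 48.8 and 53.7 CPM in pBABE (log2 fold change 0.43, adjusted p = 0.0251 by edgeR). Nrcam, an adhesion protein that joins neuropilin 2 in the Sema3f receptor, measured 24.5, 17.5 and 22.8 CPM in caMNK and 5.25 and 7.41 CPM in pBABE, a rise in all caMNK libraries (log2 fold change 1.77, adjusted p = 0.0047 by edgeR). Dag1, dystroglycan, a binding partner of slits, measured 125, 135 and 116 CPM in caMNK and 182 and 173 CPM in pBABE (log2 fold change -0.50, adjusted p = 0.0166 by edgeR). Gpc1, a heparan sulphate proteoglycan that binds slits, and Flt1, a VEGF receptor that pairs with neuropilins, fell too. Their log2 fold changes were -0.47 for Gpc1 and -0.41 for Flt1, with adjusted p-values of 0.0247 and 0.0335 by edgeR.

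Of 31 intracellular effectors, 28 were tested, 5 fell and 0 rose, where 3.52% of all tested genes fell and 4.42% rose. Their median log2 fold change was -0.25. Fyn, a kinase downstream of Sema3a and netrin receptors, measured 39.2, 39.3 and 39.6 CPM in caMNK and 55.8 and 55.5 CPM in pBABE (log2 fold change -0.50, SE 0.0811, adjusted p = 0.0114 by edgeR), and may share reads with Gm16365. Srgap3, a cytoskeletal regulator that binds Robo receptors, measured 31.0, 28.4 and 33.8 CPM in caMNK and 46.1 and 45.4 CPM in pBABE. Dpysl3, of the collapsin response mediator family, measured 160, 184 and 146 CPM in caMNK and 246 and 233 CPM in pBABE. Enah, an actin regulator, measured 40.5, 48.4 and 39.1 CPM in caMNK and 59.7 and 61.4 CPM in pBABE. The oxidoreductase gene Mical1, which acts on actin below plexins and may share reads with Smpd2, measured 0.941, 0.987 and 0.946 CPM in caMNK and 2.23 and 1.70 CPM in pBABE. The log2 fold changes of these 4 were -0.56, -0.56, -0.50 and -1.04, with adjusted p-values between 0.0155 and 0.0290. Among the 28 tested effectors, all caMNK libraries lay below both pBABE libraries in 16 and above both in 3. Over all tested genes these shares were 22.6% and 22.3%. Over the 3 lists 2 genes rose and 9 fell, where 753 and 599 of all 17026 tested genes did. Without caMNK replicate 1 it was 1 and 0, where 175 and 80 of all 16861 tested genes did. Without caMNK replicate 2 it was 9 and 25, where 2325 and 2617 of all 16675 tested genes did. With only 1 pBABE library kept, few genes of any kind were called.

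Guidance genes are also characteristic of neurons, and 2 of 4 tested neuronal genes of a list of 8 rose, Nefl and Stmn2. Of all tested genes, 4.42% rose and 3.52% fell. Nefl, which may share reads with Nefm, measured 188, 192 and 232 CPM in caMNK and 107 and 116 CPM in pBABE, and Stmn2 1.43, 1.09 and 1.43 CPM in caMNK and 0.384 and 0.341 CPM in pBABE. The list summed to 225 to 274 CPM in caMNK and 153 to 162 CPM in pBABE, nearly all of it Nefl and Tubb3. Tubb3, which may share reads with Gm20388, was lower in all caMNK libraries without a call, at 35.5, 34.2 and 40.2 CPM in caMNK and 45.6 and 45.9 CPM in pBABE. The defining neuronal genes Rbfox3, Snap25, Elavl3 and Elavl4 were at 0.206 CPM or less. The 8 immune genes summed to 13.4 to 18.3 CPM in caMNK and 13.5 to 15.0 CPM in pBABE, with Cd3e at 0, and 0 of 2 tested were called. Of the 7 fibroblast genes, 1 rose and 2 fell among 6 tested, summing to 637 to 888 CPM in caMNK and 897 to 937 CPM in pBABE. The 6 epithelial genes summed to at most 0.675 CPM in caMNK and 0.496 CPM in pBABE.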

How the data were processed

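RNA of 3 caMNK and 2 pBABE libraries was compared. The authors deposited raw read counts per gene with a gene length, 1 table per library. The submitters' processing notes name build mm10, Trimmomatic 0.32 and FastQC 0.11.2, the aligner STAR 2.5.3 with SAMtools 0.1.19, the counter featureCounts 1.5.3, and DESeq2 with no version. They name no annotation release and no counting options. Of 44187 symbols with a GENCODE M21 entry, 37404 deposited lengths equal the genomic span, introns included, as do 39 of the 55 members, so counts are treated as covering introns, and a read in an overlap as possibly counted for both genes. Genes whose span overlaps a gene of 10% or more of their counts, on either strand, are named with it. These are the shared-read genes, though shared reads were not measured. The other deposited value, the length, served for densities, the relation to length and the length correction.

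The counts were fitted with edgeR 4.0.16 in R 4.3.3: filterByExpr, TMM scaling, and a robust quasi-likelihood F test on group, with Benjamini-Hochberg adjusted p-values over 17026 genes and a threshold of 0.05. SE comes from the F statistic, as the absolute log2 fold change over its root, and 95% intervals use the fit's degrees of freedom without adjustment over genes. CPM is on TMM-scaled totals. DESeq2 1.42.0, limma-voom (limma 3.58.1), total-count scaling, 2 other filters, a replicate block, leaving out shared-read genes and each library in turn, and a length correction were alternatives. Every member is accounted for, and of the partner lists the called genes or the lowest by p are named, and further partner genes were named after their values were seen. Members and lists were chosen with earlier results of these data known. Precision rests on 2 and 3 libraries a group.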

Additional observations from a re-analysis of the deposited data

How the results depend on the processing

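Under DESeq2, 6 members rose and 7 fell, without a filter on low counts 8 and 8, and with the length correction, chosen after seeing the data, 4 and 6, against 3 and 3. DESeq2 gave 944 rises and 763 falls among all genes, and the length correction 831 and 668. Leaving out 1 library gave 0 to 10 rises and 0 to 10 falls among members, and 11 to 2325 rises and 12 to 2617 falls among all genes, where all libraries gave 753 and 599 (999 and 465 with total-count scaling). Among all genes, 1591 rose and 1330 fell without a filter and 412 and 305 without genes that may share reads, which left out 6375 tested genes, Plxna1 among them. The other 5 called members passed there, and all 6 passed in the other alternatives that left no library out. A limit of the replicate block is given below. Whether the replicate numbers pair the libraries could not be settled. Correlations of deviations were -0.055 for number 1 and -0.025 for number 2. Both rest on the same difference between the pBABE libraries. A replicate block gave 7 rises and 9 falls among members, and 1477 and 1231 among all genes. In that fit caMNK replicate 3, with no pBABE library of its number, added nothing to the contrast.

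Among uncalled members the sign of the log2 fold change turned in places, each time uncalled. With total-count scaling, which moved the median of all genes to 0.051, Efna5 came to 0.017, Sema4b to 0.019, Sema6b to 0.00077 and Unc5b to 0.014. With the length correction Efna5 came to 0.013 and Unc5b to 0.033, and with the block Efna5 to 0.025. With each library left out in turn, the ranges were Efna3 -0.88 to 0.081, Efna5 -0.15 to 0.037, Ntn1 -0.17 to 0.012, Plxnc1 -0.27 to 0.066, Robo2 -0.19 to 0.18, Sema3d -0.15 to 0.27, Sema4b -0.13 to 0.045, Sema6b -0.13 to 0.056, Slit1 -0.057 to 0.29 and Unc5b -0.087 to 0.014. The cause was not tested. Members with few reads, such as Unc5c, are limited by depth.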
